A study of Mus musculus with 3 samples.

Results

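The 10 most abundant messenger RNAs of wild type mouse myeloid-derived suppressor cells (MDSCs) were, in falling order, those of Fth1, S100a9, Ftl1, Thbs1, S100a8, Actb, mt-Co1, Ngp, Lcn2 and Il1b. They encode ferritin chains, the subunits of calprotectin, a thrombospondin, an actin, a cytochrome oxidase subunit, neutrophil granule proteins and a cytokine. MDSCs are immature myeloid cells that restrain T cells. A gene was counted as present in the wild type library when its level was at least 1 FPKM, with 1 row kept per gene symbol. FPKM, fragments per kilobase of exon and per library size, is a level already scaled for both, so levels of different genes can be set side by side. Of 20625 genes with a symbol, 11792 were present, which was 57.2%. Marrow was taken from femurs of C57BL/6 mice of wild type genotype, and its cells were grown for 4 days with the cytokines GM-CSF and IL-6 before total RNA was extracted. The other libraries of the study came from mice of the same strain and the same culture lacking a long noncoding RNA, genotypes lnc57Rik-/- and lncGM1082-/-, and are used here for ranks alone. Animals without lncGM1082 are absent from the growth protocol, although a library carries that genotype. There was 1 library per genotype, so no level has a replicate error and no test was made. No sort of the cells, number of pooled animals, sex or age is given in the sources used here.

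GM-CSF and IL-6 drive marrow precursors towards neutrophil and monocyte fates, and the mixture that results holds cells resembling both granulocytic and monocytic MDSCs. Immature neutrophils make their granule proteins in waves. Proteases of the primary granules come first, at the promyelocyte stage. Proteins of the secondary and tertiary granules follow, and receptors of the mature cell come later. MDSCs are known for depleting arginine through arginase and inducible nitric oxide synthase, for reactive oxygen species, and for the ligands that act on T cell checkpoints. In RNA from a whole culture, fewer cells of a type and less RNA per cell cannot be told apart.

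The promoters of 6 of the 30 most abundant genes are shown because these genes carry the main features of the library: calprotectin (S100a9, S100a8), a secondary granule protein (Ngp), ferritin (Fth1, Ftl1) and a cytokine (Il1b). The sequences are from RefSeq on GRCm38.p6, 300 bases each, 250 before the transcription start and 50 from it on, 5′ to 3′ on the strand of the gene. S100a9 is at chr3:90695672-90695971 on the minus strand, S100a8 at chr3:90668821-90669120 on the plus strand, Ngp at chr9:110419558-110419857 on the plus strand, Fth1 at chr19:9982396-9982695 on the plus strand, Ftl1 at chr7:45459837-45460136 on the minus strand and Il1b at chr2:129371090-129371389 on the minus strand. Capitals mark every match, on either strand, to the TATA box TATAAA, the CCAAT box CCAAT, the GC box GGGCGG, the C/EBP-type motif TTGCNNAA and the PU.1-type motif GAGGAAGT.
S100a9: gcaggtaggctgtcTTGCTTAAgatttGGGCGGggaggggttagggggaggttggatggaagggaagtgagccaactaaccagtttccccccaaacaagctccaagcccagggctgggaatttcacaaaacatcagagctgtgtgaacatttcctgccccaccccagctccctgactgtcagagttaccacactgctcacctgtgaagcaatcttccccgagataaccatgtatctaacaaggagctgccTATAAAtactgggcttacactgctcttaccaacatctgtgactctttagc
S100a8: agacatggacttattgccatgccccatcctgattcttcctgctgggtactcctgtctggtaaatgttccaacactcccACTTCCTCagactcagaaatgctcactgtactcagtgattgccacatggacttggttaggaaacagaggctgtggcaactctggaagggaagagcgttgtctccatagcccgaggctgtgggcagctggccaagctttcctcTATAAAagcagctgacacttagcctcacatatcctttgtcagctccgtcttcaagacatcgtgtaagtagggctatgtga
Ngp: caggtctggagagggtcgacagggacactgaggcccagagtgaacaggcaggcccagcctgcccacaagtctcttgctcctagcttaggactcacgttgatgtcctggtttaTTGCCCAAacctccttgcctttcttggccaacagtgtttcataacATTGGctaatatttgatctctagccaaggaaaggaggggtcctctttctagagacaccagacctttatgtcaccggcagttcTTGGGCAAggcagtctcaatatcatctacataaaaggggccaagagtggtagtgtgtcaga
Fth1: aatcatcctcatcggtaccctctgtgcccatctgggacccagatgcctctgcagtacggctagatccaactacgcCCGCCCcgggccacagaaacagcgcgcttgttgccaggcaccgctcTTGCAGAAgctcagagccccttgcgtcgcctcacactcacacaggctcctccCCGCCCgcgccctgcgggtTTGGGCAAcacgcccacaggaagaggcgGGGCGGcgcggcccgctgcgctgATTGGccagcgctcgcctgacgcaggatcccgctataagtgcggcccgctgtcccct
Ftl1: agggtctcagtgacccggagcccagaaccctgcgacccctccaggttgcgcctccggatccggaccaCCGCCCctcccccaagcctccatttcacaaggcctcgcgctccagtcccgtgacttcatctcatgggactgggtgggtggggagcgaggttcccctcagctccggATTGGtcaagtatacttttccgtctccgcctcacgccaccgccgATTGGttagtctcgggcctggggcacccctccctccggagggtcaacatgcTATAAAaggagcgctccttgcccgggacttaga
Il1b: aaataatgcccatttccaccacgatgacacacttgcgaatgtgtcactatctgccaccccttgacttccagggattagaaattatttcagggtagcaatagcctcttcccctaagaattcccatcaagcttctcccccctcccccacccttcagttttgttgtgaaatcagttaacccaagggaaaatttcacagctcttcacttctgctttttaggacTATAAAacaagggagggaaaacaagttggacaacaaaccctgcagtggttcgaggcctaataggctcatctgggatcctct

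Positions are counted from 1 at the first transcribed base, and bases before it carry negative numbers. TATAAA began at -30 in S100a8 and at -31 in Il1b, and it also occurred at 1 in S100a9 and at 18 in Ftl1, where the annotated start lies beside or before it. The C/EBP-type motif, named for the C/EBP factors of granulocyte development, began at -236 in S100a9, at -138 and -11 in Ngp and at -129 and -58 in Fth1. The PU.1-type motif was found in S100a8 alone, at -172. The CCAAT box occurred in Ngp at -93, in Fth1 at -7 and in Ftl1 at -78 and -34. GC boxes were in Fth1 at -175, -77 and -30, in Ftl1 at -183 and in S100a9 at -223. No matches overlapped each other. Of 32851 RefSeq promoters of the same length, 13.6% held TATAAA, 37.4% CCAAT, 35.7% GGGCGG, 10.8% the C/EBP-type and 3.20% the PU.1-type motif, so each match is a description of letters and not a binding site. A comparison of motifs between abundance classes is void, because 72 of the 100 most abundant genes had a promoter in the RefSeq table, under the 80% needed. Of all 11792 genes present, 7844 had one.

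The library was dominated by few genes. Fth1, the ferritin heavy chain that oxidises and stores iron, had 20190.3 FPKM (95% exact Poisson interval 20121 to 20260.0, 323208 fragments) and took 7.43% of summed FPKM over the genes present. That level rests on a length of 866 bases, solved from the steps of the deposited values. At the 1494 bases of its principal transcript in GENCODE M21 it would be 11703 FPKM, 1.73 times lower. With principal transcript lengths used for every gene that has one, Fth1 would take 3.46% of summed FPKM, still at the first rank. The intervals here cover counting error only, since sequenced fragments are not independent molecules. The 10 most abundant genes took 16.3%, the first 100 took 34.7% and the first 1000 took 65.4%. The number of genes that together held 50% of summed FPKM was 344, and 4698 held 90%. The median gene present had 6.35 FPKM, and the range from the highest to the lowest was 20188-fold. A level of at least 10 FPKM was reached by 20.6% of genes with a symbol, at least 100 FPKM by 1.82% and at least 1000 FPKM by 0.0970%, which was 20 genes.

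**Figure D1:**
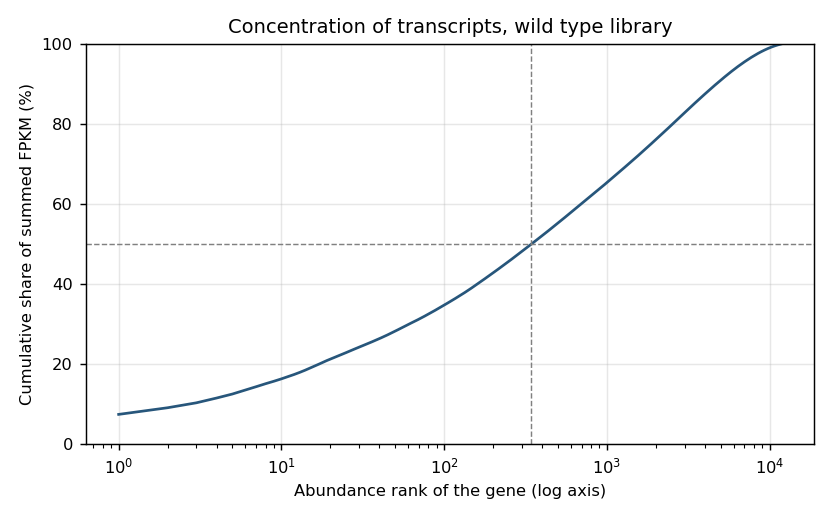
Cumulative share of summed FPKM in the wild type library (y axis, %) against the abundance rank of the gene (x axis, log axis) over the 11792 genes present. The dashed lines mark 50% of summed FPKM, reached at 344 genes, and the curve starts at 7.43% for Fth1 alone.

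The depth behind these levels was 18485094 fragments in the wild type library, in which 1 fragment in a gene of 1000 exon bases was worth 0.0541 FPKM. Fragments could be recovered for 10881 genes present (92.3%), which held 95.2% of summed FPKM. Of these, 382 had under 10 fragments, so the low end of the list rests on few fragments. The genes just inside the minimum were Isca2, an iron-sulfur cluster assembly factor, at 1.0007 FPKM (34 fragments) and Bcdin3d, an RNA methyltransferase, at 1.0001 FPKM (86 fragments). Just outside it were Ankrd26 at 0.9995 FPKM (134 fragments) and Trim17 at 0.9991 FPKM (69 fragments), so neighbours on either side of the limit do not differ beyond counting error.

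Ferritin and calprotectin filled 4 of the first 5 places. S100a9 followed Fth1 with 4521 FPKM (4478 to 4563) and its partner S100a8 came after Thbs1 with 2718 FPKM (2689.7 to 2747); together they form calprotectin, the calcium and zinc binding protein of neutrophil cytosol. Ftl1, the ferritin light chain that helps form the iron core, had 3341 FPKM (3318 to 3364). Its level is uncertain, because 90.6% of its 50-base stretches also occur in transcripts of 17 other genes. Next was Thbs1, thrombospondin 1, a secreted matrix glycoprotein that activates TGF-beta, with 3261 FPKM (3251 to 3272). Thbs1 had the most fragments of any gene, 366127 or 1.98% of the library, ahead of 323208 or 1.75% for the much shorter Fth1. The intervals of these 5 genes do not overlap.

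Neutrophil granule and secretory genes formed the next group. Ngp, a cathelicidin-like secondary granule protein, had 2025 FPKM (2007 to 2044), Lcn2, the siderophore-binding lipocalin of the secondary granules, had 1683 FPKM, and Slpi, an inhibitor of elastase, had 1449.9 FPKM. Hp, the haemoglobin-binding haptoglobin, stood at 1171 FPKM and Chil3, the chitinase-like protein Ym1, at 1002 FPKM. Lyz2, the lysozyme of macrophages and neutrophils, had 1449 FPKM. All of these lay within the first 20 ranks.

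Inflammatory and stress response genes ran from 664 to 1602 FPKM among the first 30. Il1b, the precursor of interleukin 1 beta, had 1602 FPKM and closed the first 10. The chemokine genes Ccl3, Cxcl2 and Cxcl3 had 1259, 949 and 690.0 FPKM; the products of the Cxcl genes attract neutrophils. Hmox1, the haem-degrading oxygenase whose reaction releases iron, had 1407 FPKM. Acod1, which makes itaconate in activated myeloid cells, had 832 FPKM, and Cd14, the lipopolysaccharide co-receptor, had 899 FPKM. Nos2, the inducible nitric oxide synthase, lay between them with 886 FPKM (879.9 to 893). Nfkbia, the NF-kappa-B inhibitor that NF-kappa-B itself induces, closed the first 30 with 664 FPKM.

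The other genes among the first 30 are expressed in most cell types. Actb and Actg1, the cytoplasmic actins, had 2666 and 809 FPKM, and Tmsb4x, the actin monomer binder thymosin beta 4, had 1443 FPKM. Eef1a1, the elongation factor that delivers aminoacyl-tRNA, had 1559.8 FPKM, with 60.6% of its 50-base stretches shared with other genes. Psap and Ctsd, a lysosomal activator protein precursor and a lysosomal protease, had 1433 and 687 FPKM, and B2m, the MHC class I light chain, had 1246 FPKM. Aldoa, a glycolytic aldolase, had 809 FPKM, Rplp1, a ribosomal stalk protein, had 864 FPKM, and mt-Co1, a subunit of cytochrome c oxidase encoded in the mitochondrial genome, had 2320.5 FPKM. Of the first 30 genes, 29 were also among the first 30 of the lncGM1082 KO library and 27 among those of the lnc57Rik KO library. For the first 100 these counts were 88 and 80.

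**Figure D2:**
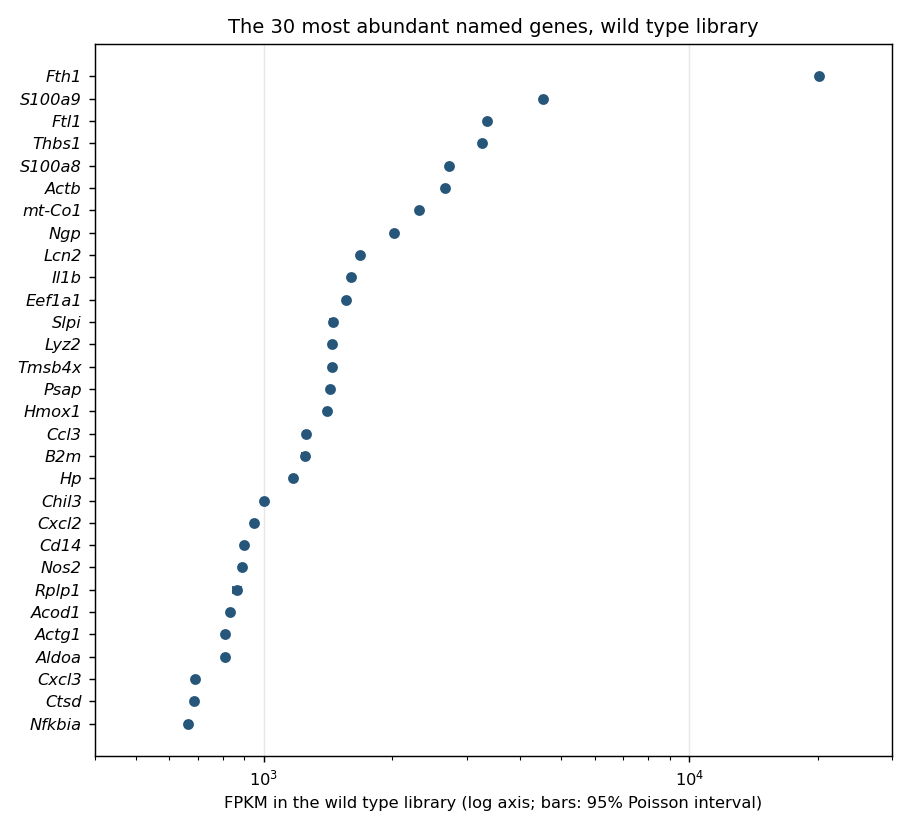
The 30 most abundant named genes of the wild type library by FPKM (log axis), with exact Poisson intervals at 95% where fragments were recovered. Levels run from 20190.3 FPKM for Fth1 to 664 FPKM for Nfkbia, and the intervals, which cover counting error only, are narrow beside the gaps among the first 5 genes.

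For 10767 genes present, FPKM was divided by the summed exon bases of all GENCODE M21 transcripts of the gene, and for some this is far longer than the main messenger RNA. For 114 other genes, Fth1 among them, the length was solved from the steps, and 68 of these lengths are shorter than the principal transcript. With the length of the APPRIS principal transcript (the annotators' choice of main isoform) where it is shorter, Lcn2 came to 4825 FPKM, 2.87 times its deposited level. This rule leaves Fth1 as deposited. Cxcl3 came to 2376 FPKM, 3.44 times. Saa3, an acute phase apolipoprotein, went from 348 to 1635 FPKM and Eif4g2, a translation initiation factor, from 86.1 to 1179 FPKM, a ratio of 13.7. The Eif4g2 value is unreliable, because the transcript marked as principal has 742 bases while its longest coding transcript has 7995. Of the first 30 genes as deposited, 26 remained among the first 30, and 25 did when longer principal transcripts were used as well. Over 9228 protein-coding genes present, the median ratio was 1.12, and 13.4% had a ratio of 2 or more. In the gene lists below, 107 of 461 genes had a ratio over 1.5, among those named Cox6c (4.83), Ly6c2 (3.33), Cd34 (2.97), Gapdh (2.91), Blnk (2.86), Cd3e (2.79), Hdc (2.67), Capza2 (2.32), Pabpc1 (2.32), Atp5b (2.21), Tpt1 (2.04), Cox4i1 (2.03), Ldha (1.87), Slc2a3 (1.83), Vwf (1.82), Hspa8 (1.8) and Tmsb4x (1.79). It was also over 1.5 for Thy1 and Top2a (1.73), Prtn3 and Flt3 (1.69), Eif5a (1.65), C1qc (1.61), Itga2b (1.59), Pcna (1.58), Kdr (1.52), and Arg1 and Gata2 (1.51), which are the factors by which their levels below would rise at that length. Sod2, with a solved length, would instead be 1.53 times lower. These lengths were chosen after the data were seen, as were Saa3 and Eif4g2.

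Effectors of suppression were among the well expressed groups. Of 25 genes listed, 24 had at least 1 FPKM, 22 at least 10 and 12 at least 100, with a median of 93.9 FPKM, against 1.77 FPKM for all genes with a symbol. Those 3 levels were reached by 57.2%, 20.6% and 1.82% of all genes with a symbol, the background for each list below. The highest members of the suppression list were S100a9, S100a8, Hmox1 and Nos2. Arg1, the arginase that breaks down arginine, the substrate of Nos2, had 626 FPKM from 25762 fragments. Ido1, the tryptophan-degrading dioxygenase, was listed at 0. Ptgs2, the cyclooxygenase of prostaglandin synthesis, had 227 FPKM, and Cd274, the checkpoint ligand PD-L1, had 156 FPKM. Cyba and Cybb, the subunits of the NADPH oxidase cytochrome, had 355 and 225 FPKM. The last 4 and Arg1 were named after their levels were seen.

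Genes for the receptors and signalling of the culture cytokines were all present. All 16 listed had at least 1 FPKM and 7 had at least 100, with a median of 76.5 FPKM. Socs3, the feedback inhibitor of IL-6 signalling, led with 441 FPKM. Csf2rb, the common beta chain of the GM-CSF receptor, followed with 330.1 FPKM, Csf2ra, its alpha chain, with 225 FPKM, and Csf2rb2, the IL-3 receptor beta chain found in mice, with 206 FPKM. The lowest was Il6ra, the IL-6 receptor alpha chain, with 7.10 FPKM, and Il6st, the signalling chain gp130, had 8.35 FPKM, which places both IL-6 receptor chains well under the GM-CSF receptor chains. Il6st was named after its level was seen.

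Myeloid transcription factor genes were present without exception, 30 of 30, with a median of 42.9 FPKM. Nfkbia (listed with them as an NF-kappa-B regulator), Junb (323 FPKM) of the AP-1 family, Cebpb (236 FPKM), the C/EBP factor of emergency granulopoiesis, and Egr1 (172 FPKM), an immediate early factor, were highest. Klf4, a factor of monocyte differentiation, was lowest with 1.81 FPKM. Spi1, which encodes PU.1, had 120.3 FPKM and was named after its level was seen.

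Of 26 chemokine and cytokine genes, 26 had at least 1 FPKM and 12 at least 100, with a median of 87.1 FPKM. Besides Il1b, Ccl3, Cxcl2 and Cxcl3, the list held Ccl6 at 633 FPKM, Il1a at 540.2 FPKM, the IL-1 receptor antagonist Il1rn at 492 FPKM, Tnf at 239 FPKM and Il6 at 163 FPKM. The 5 genes from Ccl6 to Il6 were named after their levels were seen. Il12b, the p40 chain of IL-12 and IL-23, was lowest with 1.79 FPKM. Receptors of the toll-like family and their adaptors were lower: 13 of 15 had at least 1 FPKM and the median was 12 FPKM. The highest were Cd14, Tlr2 (134 FPKM), which senses bacterial lipoproteins, Tlr4 (36.6 FPKM), which senses lipopolysaccharide, and the adaptor Myd88 (33.1 FPKM), while the flagellin receptor Tlr5 had 0.113 FPKM. The Fc and phagocytic receptor list had 17 genes with at least 1 FPKM and 9 with at least 100, at a median of 133 FPKM. It was led by the C-type lectins Clec4n (549.9 FPKM) and Clec4d (369 FPKM), the integrin beta chain Itgb2 (358 FPKM) and the Fc receptor gamma chain Fcer1g (343 FPKM), with the mannose receptor Mrc1 lowest at 3.52 FPKM.

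The label of the cells was set against their markers. Mouse MDSCs are defined by the surface proteins CD11b and Gr1, the latter covering Ly6G and Ly6C. Itgam, which encodes CD11b, had 36.5 FPKM, Ly6g had 73.4 FPKM (69.4 to 77.5) and Ly6c2 had 243 FPKM. The level of Itgam is uncertain, as 72.4% of its 50-base stretches occur in a second annotated gene. Transcripts of all these markers were present, along with Arg1 and Nos2, which does not show how many cells carried them.

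The 3 lists of neutrophil genes had the highest medians of 13 cell type lists. By share of summed FPKM the order differed, since primary granules took 0.289%, below monocytes and macrophages with 1.54% and dendritic cells with 0.391%. For secondary and tertiary granules all 18 genes had at least 10 FPKM and 12 had at least 100, with a median of 201 FPKM and quartiles of 83.0 and 483 FPKM. These genes took 3.10% of summed FPKM, or 1.87% of the fragments recovered for genes present, led by Ngp, Lcn2, Hp and Chil3. Olfm4, which marks a subset of neutrophils, was lowest with 10.7 FPKM. Further members, named after their levels were seen, were Mmp8, the neutrophil collagenase, at 453 FPKM, Camp, the cathelicidin, at 409 FPKM, Ltf, lactoferrin, at 235 FPKM and Mmp9, gelatinase B, at 177 FPKM. For mature neutrophils, 20 of 20 genes had at least 10 FPKM and 7 at least 100, with a median of 64.1 FPKM and quartiles of 32.0 and 229 FPKM. S100a9, S100a8, Slpi and Cxcl2 led, and Asprv1, a skin protease also made by neutrophils, was lowest with 12.5 FPKM. S100a9 alone made up 41.7% of the summed FPKM of this list. Of the 20 genes, 4 are also in other lists. S100a9 and S100a8 lead the suppression list too, so the shares of both lists count them.

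Genes of the list for primary granules, which are made earlier in maturation, were lower. All 9 had at least 1 FPKM, 8 had at least 10 and 2 at least 100, with a median of 58.1 FPKM and quartiles of 36.1 and 84.3 FPKM. Elane, neutrophil elastase, had 321 FPKM, and the serine proteases Prtn3 and Ctsg had 84.3 and 68.8 FPKM. Igsf6, the other listed gene at 100 FPKM or more, had 152 FPKM and encodes an immunoglobulin superfamily receptor, not a granule protein. Prss57, a further serine protease, had 2.51 FPKM. The quartile ranges of the neutrophil lists overlap each other, so their order by median is not one of separated groups.

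Monocyte and macrophage genes spread over a wider range. Of 24 listed, 21 had at least 1 FPKM, 15 at least 10 and 8 at least 100, with a median of 23.4 FPKM and quartiles of 3.51 and 164 FPKM. The highest were Lyz2, Cd14, Spp1 (osteopontin, 572 FPKM) and Lgals3 (galectin 3, 257 FPKM). Csf1r, the receptor of the macrophage growth factor, had 147 FPKM. At the other end Cx3cr1, the fractalkine receptor of patrolling monocytes and resident macrophages, had 0.480 FPKM. Complement C1q, a product of tissue macrophages, has 3 chains, with C1qa at 0.936, C1qb at 1.64 and C1qc at 0.700 FPKM. Ccr2, the chemokine receptor of inflammatory monocytes, had 11.4 FPKM, and these last 4 genes were named after their levels were seen.

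Dendritic cell genes split by kind. Of 21 listed, 14 (66.7%) had at least 1 FPKM and 10 (47.6%) at least 10, against 57.2% and 20.6% of all genes with a symbol. The median was 7.05 FPKM with quartiles of 0.559 and 70.1 FPKM. The MHC class II genes led: Cd74, the invariant chain, had 472 FPKM, H2-Ab1 had 136 FPKM and H2-Eb1 had 95.5 FPKM. Ccl17, a chemokine of myeloid dendritic cells grown with GM-CSF, had 80.2 FPKM. The receptor Flt3, the type 1 markers Xcr1 and Clec9a and the plasmacytoid marker Siglech had 0.482, 0.231, 0.559 and 0.0160 FPKM. Batf3, a transcription factor of conventional type 1 dendritic cells, had 7.05 FPKM (208 fragments), the median of the list. Xcr1, Clec9a and Batf3 were named after their levels were seen.

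**Figure D3:**
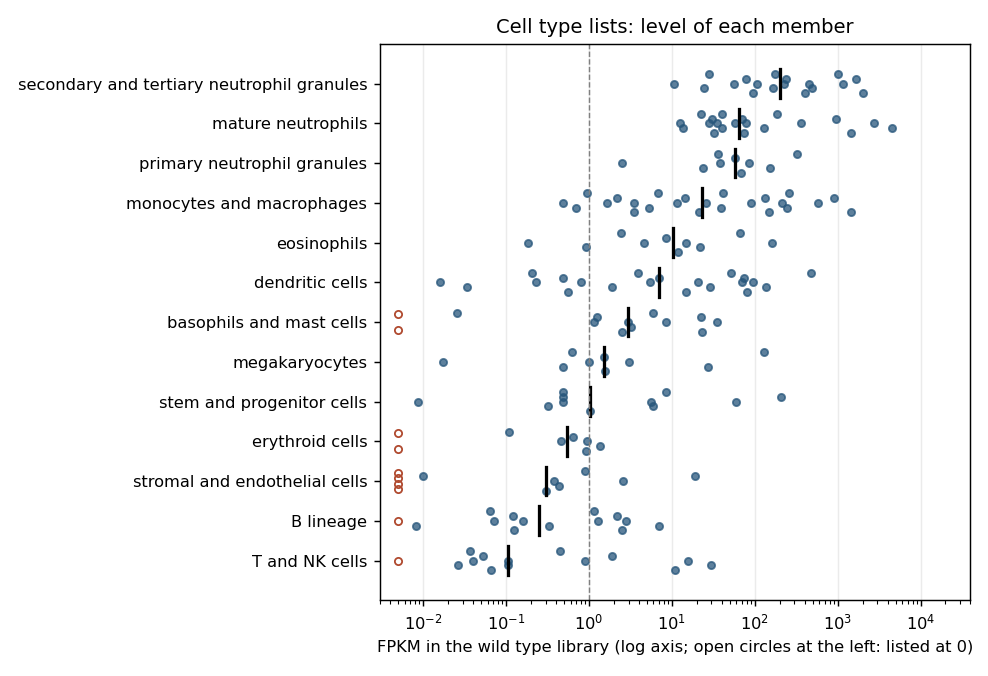
Wild type FPKM (log axis) of every member of the 13 cell type lists, 1 point per gene, with the median of each list as a bar, open circles at the left for genes listed at 0 and a dashed line at 1 FPKM. Lists of neutrophil granules and mature neutrophils lie highest, with medians of 201, 64.1 and 58.1 FPKM, and B lineage and T and NK lists lowest, with medians of 0.247 and 0.105 FPKM.

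Eosinophil genes were present at moderate levels, while the basophil and mast cell list had a median near that of all protein-coding genes. Prg2, the major basic protein of eosinophil granules, had 159.8 FPKM, Epx, eosinophil peroxidase, had 66.4 FPKM, and the eosinophil ribonucleases Ear6 and Ear2 had 21.6 and 15 FPKM. Il5ra, the IL-5 receptor chain of eosinophils, had 0.182 FPKM. The list had 8 of 10 genes at 1 FPKM or more and a median of 10.2 FPKM. The level of Ear2 is uncertain, as 41.5% of its 50-base stretches occur in other genes, against 1.07% for Ear6. In the basophil and mast cell list 10 of 13 genes (76.9%) had at least 1 FPKM and 23.1% at least 10. For all genes with a symbol these shares were 57.2% and 20.6%. The list median was 2.98 FPKM, beside 2.67 FPKM over protein-coding genes. The list was led by the basophil proteases Prss34 (35.2 FPKM) and Mcpt8 (22.7 FPKM), the histamine-forming enzyme Hdc (23.4 FPKM) and the factor Gata2 (8.54 FPKM). The mast cell proteases Cma1 and Tpsb2 were listed at 0. The mast cell carboxypeptidase Cpa3 had 3.25 FPKM (91 fragments), and the tryptase Tpsab1 had 1 fragment. These 2 genes and Tpsb2 were named after their levels were seen.

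Most genes of other lineages were low or at 0, with Thy1, Il7r and Nkg7 of the T and NK list as exceptions. In that list 21.4% of genes had at least 10 FPKM, against 20.6% of all genes with a symbol. In the T and NK cell list 4 of 14 had at least 1 FPKM, with a median of 0.105 FPKM; Thy1 had 29.5 FPKM, Il7r 15.6 FPKM, Nkg7 10.9 FPKM and Cd5 1.88 FPKM, while Cd3e, a chain of the T cell receptor complex, had 0.0530 FPKM and Gzma was listed at 0. In the B lineage list 6 of 14 had at least 1 FPKM and none had 10, with a median of 0.247 FPKM; Ighm, the heavy chain of IgM, had 6.97 FPKM while Blnk, a signalling adaptor, had 2.79 FPKM, Cd79a and Cd79b of the antigen receptor complex had 2.49 and 2.19 FPKM, and Igll1 of pre-B cells was listed at 0. Of 8 erythroid genes 1 had at least 1 FPKM, Alas2 of haem synthesis at 1.37 FPKM, and Hba-a1, an alpha globin with a near-identical copy, had 0.933 FPKM. The beta globins Hbb-bt and Hbb-bs had 0.923 and 0.634 FPKM, so every globin gene named here was under 1 FPKM.

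Some lists were split between a few high members and the rest. In the megakaryocyte list Pf4, platelet factor 4, had 128 FPKM and Ppbp, another platelet chemokine, had 27.2 FPKM. The integrin chain Itga2b and von Willebrand factor (Vwf) were far lower, with 3.08 and 1.57 FPKM, and the list median was 1.53 FPKM. In the stem and progenitor list Procr, the protein C receptor, had 205 FPKM and Ly6a, which encodes Sca-1, had 58.6 FPKM. Kit, the stem cell factor receptor, had 5.93 FPKM, the marker Cd34 had 0.490 FPKM and Mecom had 0.00871 FPKM, with a median of 1.04 FPKM. In the stromal and endothelial list 2 of 11 genes had at least 1 FPKM, the endothelial adhesion molecule Pecam1, which myeloid cells also carry, at 18.9 FPKM and Pdgfrb at 2.57 FPKM, with the collagen gene Col1a1 at 0.305 FPKM and 4 genes, Pdgfra among them, at 0. The endothelial genes Kdr and Cdh5 had 0.905 and 0.438 FPKM. Of the 13 lists, 9 had a median of at least 1 FPKM, a limit under the median of 1.77 FPKM over all genes with a symbol. The megakaryocyte list and the stem and progenitor list, both among the 9, lay under that median too.

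Housekeeping and stress functions differed in level. Glycolysis genes (17 of 17 at 1 FPKM or more, 11 at 100 or more) had a median of 187 FPKM, and after Aldoa the highest were Pgk1 (561 FPKM), Pkm (475 FPKM) and Ldha (433 FPKM), with the glucose transporter Slc2a3 lowest at 19.0 FPKM. Nuclear genes of the respiratory chain had a median of 24.5 FPKM, with 17 of 20 at 10 FPKM or more and Cox6a1 (114 FPKM), a cytochrome oxidase subunit, at 100 or more. At principal transcript lengths Atp5b and Cox4i1 would pass 100 FPKM as well. The ATP synthase genes Atp5a1 and Atp5b followed with 96.3 and 89.5 FPKM and Cox4i1 with 77.7 FPKM, and Cox6c was lowest with 1.5 FPKM. Lysosomal proteases and inhibitors had a median of 104 FPKM, with Psap, Ctsd, cathepsin Z (Ctsz, 486 FPKM) and the inhibitor cystatin B (Cstb, 258 FPKM) highest and the protease Lgmn lowest at 10.5 FPKM. Actin cytoskeleton genes had a median of 184 FPKM, with Cfl1, the filament-severing cofilin, at 305 FPKM and Capza2, a capping protein, lowest at 43.7 FPKM. The iron list took 9.89% of summed FPKM, of which Fth1 alone made up 75.1%. Its median was 24.3 FPKM, and below ferritin and Hmox1 stood Slc11a1, the phagosomal metal transporter, with 133 FPKM, named after its level was seen. Steap3, a ferric reductase, had 0.521 FPKM.

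Antioxidant genes had a median of 110.1 FPKM, with 16 of 16 at 10 FPKM or more. Prdx1, a peroxiredoxin, had 650.0 FPKM, Txn1, thioredoxin, had 299.6 FPKM, the mitochondrial superoxide dismutase Sod2 had 260.4 FPKM, and glutathione reductase, Gsr, had 258 FPKM. Gsto1 was lowest with 14.5 FPKM. Chaperone genes had a median of 108 FPKM, with the HSP90 gene Hsp90ab1 at 456 FPKM, Hspa8 of the HSP70 family at 345 FPKM, the disulfide isomerase P4hb at 339 FPKM and the ER chaperone Hspa5 at 289.9 FPKM, and the co-chaperone Dnajb1 lowest at 16.5 FPKM. In the list of MHC class I and peptide loading, B2m was followed by H2-D1 at 356 FPKM, H2-K1 at 239 FPKM and the peptide loading factor tapasin (Tapbp), with a median of 26.8 FPKM and the immunoproteasome subunit Psmb9 lowest at 9.77 FPKM. Translation factors had a median of 113 FPKM, with Eef2 at 465 FPKM, Pabpc1 at 184 FPKM and Eif5a at 164 FPKM behind Eef1a1, and Tpt1 lowest at 6.89 FPKM. Cell cycle genes were all present, 25 of 25, and none reached 100 FPKM. Their median was 7.80 FPKM, with the replication clamp Pcna at 40.0 FPKM, Ccnd2 at 26.5 FPKM, the proliferation marker Mki67 at 25.3 FPKM and Top2a at 20.4 FPKM, and Ccnd1 lowest at 1.25 FPKM.

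**Figure D4:**
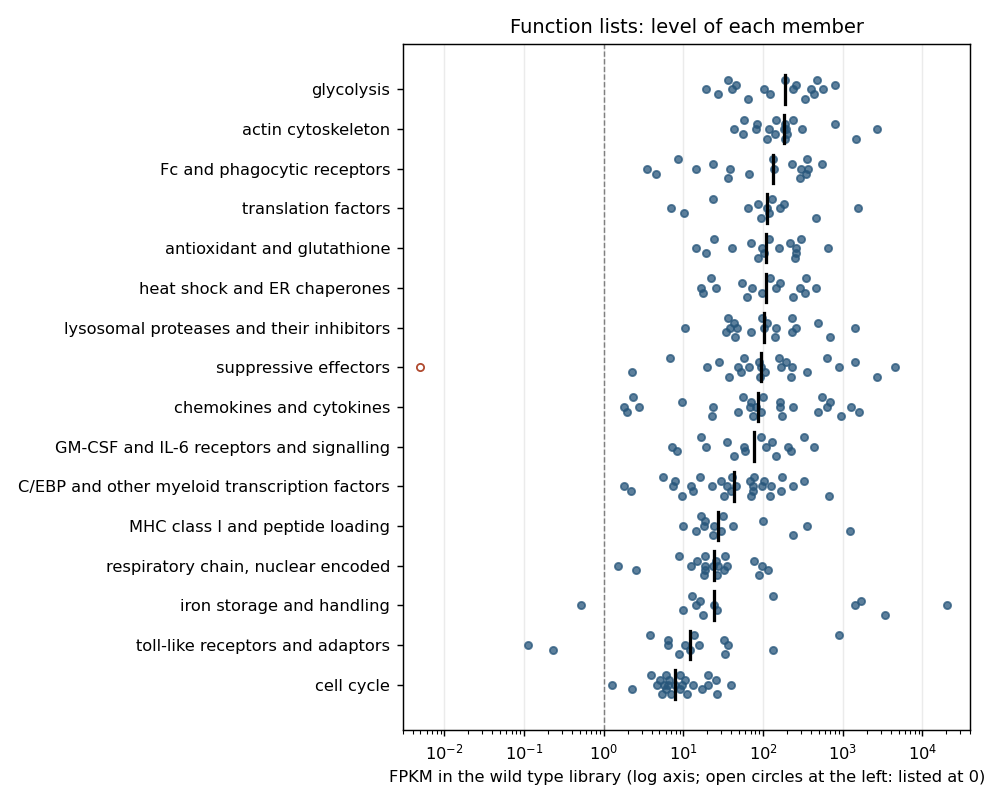
Wild type FPKM (log axis) of every member of the 16 function lists, 1 point per gene, with the median of each list as a bar. Glycolysis and actin cytoskeleton have the highest medians, 187 and 184 FPKM, and the cell cycle list the lowest, 7.80 FPKM.

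By class of RNA, protein-coding genes other than ribosomal protein and mitochondrial genes took 89.2% of summed FPKM over the genes present. Ribosomal protein genes took 4.56%, with 80 of 86 at 1 FPKM or more and a median of 103 FPKM. Their levels ran from 1.30 FPKM for Rps27 to 864 FPKM for Rplp1. Pseudogenes took 2.81% (885 of 2720, the highest being Gm10123 at 235 FPKM), small RNAs 1.64%, mitochondrially encoded genes 1.26% and antigen receptor segments 0.107%. The 579 small RNA genes present held 0.0557% of all fragments of the library. A further 9870 rows without a symbol had at least 1 FPKM and were not counted as genes present. Had they been counted, they would hold 16.1% of summed FPKM, and every class share above would be lower. Their median was 2.44 FPKM, the highest, 5279 FPKM, lay over the mitochondrial ribosomal RNA mt-Rnr1, and the row over Malat1, a nuclear long noncoding RNA, had 412 FPKM.

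Mitochondrially encoded genes, which are transcribed together, differed by orders of magnitude. Only the 10 listed with a symbol are covered, of which 8 were present, with 3425 FPKM in sum. The row without a symbol over mt-Rnr1, at 5279 FPKM, exceeds that sum and is left out of the 1.26% share. Beside mt-Co1 stood mt-Cytb at 566 FPKM, mt-Nd4 at 257 FPKM and mt-Nd2 at 255 FPKM. The other 6 were under 10 FPKM: mt-Co2 had 8.54, mt-Nd4l 8.01, mt-Co3 5.66, mt-Atp6 4.13, mt-Atp8 0.265 and mt-Rnr2 0.137 FPKM. The share of their 50-base stretches that also occurs in transcripts of other genes was 100% for mt-Co2, 98.8% for mt-Nd4l, 99.9% for mt-Co3 and 99.5% for mt-Atp6, and 0% for mt-Cytb, but also 51.1% for mt-Co1, 0% for mt-Atp8 and 1.04% for mt-Rnr2. Gapdh, a glycolytic enzyme named after its level was seen, had 40.4 FPKM with 82.5% shared with 222 other genes. Of 553 genes with a value, 66 had 50% or more shared. Hspa8 (74.8%), Pgk1 (68.0%) and Actg1 (56.7%) were among them, so their levels are uncertain too. Over the 80 ribosomal protein genes Spearman's rho between this share and FPKM was 0.07, a description over genes of 1 library. The part of shared sequence in these levels was not tested.

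**Figure D5:**
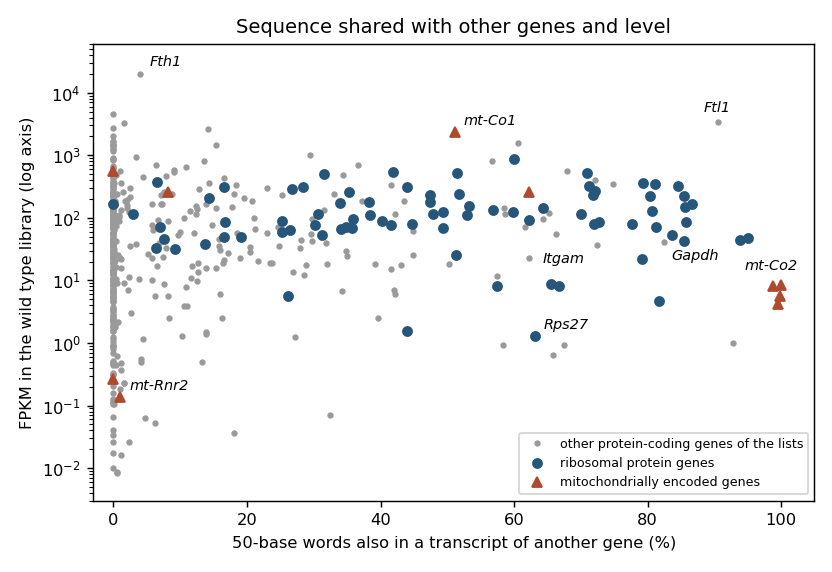
Wild type FPKM (y axis, log axis) against the share of 50-base stretches of a gene that also occur in a transcript of another gene (x axis, %), 1 point per gene for list members, ribosomal protein genes and mitochondrially encoded genes. Among the low mitochondrial genes mt-Co2 lies at 100% and mt-Rnr2 at 1.04%, and ribosomal protein genes spread over the axis with a rho of 0.07.

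Highly expressed genes had shorter exon sequence, a length by which FPKM is divided. The median summed exon length of protein-coding genes was 1751 bases for the first 100 ranks (95 of 100 genes with a length), 3045 bases for the ranks after these up to 1000, 4484 bases for the other genes present and 3560.0 bases for genes under 1 FPKM. Spearman's rho of length and FPKM over 9228 genes present was -0.10, as a description. Among the first 100 genes, 11 lay in 5 groups of neighbours less than 100 kb apart on GRCm38. These were S100a8 and S100a9 at chr3:90668978-90695721, Il1a and Il1b at chr2:129299610-129371139, Ccl6, Ccl3 and the whey acidic protein gene Wfdc21 at chr11:83587882-83752642, Clec4n and Clec4d at chr6:123229843-123275265, and Rps14 and Cd74 at chr18:60774510-60812646.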

How the data were processed

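Total RNA of 3 libraries was sequenced, 1 per genotype. The authors deposited 1 table of FPKM per gene. Bowtie 0.12.2 and mm9 are named, without a role, per the submitters' processing notes. How fragments were counted, by strand or not, and shared between similar genes is not stated in the sources, so genes with near-identical copies and overlapping or antisense partners are uncertain. Gene positions in the table are those of GRCm38: of 20607 rows found in GENCODE M21, 19553 had the identical position.

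The value of 1 fragment was recovered from the steps of low FPKM values and exon lengths (GENCODE M21, or solved from the steps of all 3 libraries). Of 2969 wild type values below 20 fragments, 100.0% were whole to within 0.05, and the procedure was tested on simulated data. Fragments give the exact Poisson intervals, at 95%. The fragment total was 18485094 for wild type, 18280433 for lncGM1082 KO and 17593434 for lnc57Rik KO.

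Rows with a symbol and at least 1 FPKM in wild type were taken, 11797 in all, and 5 were dropped as a second row of a symbol, by the highest mean of the 3 columns. Genes, gene lists and the naming rule were chosen with earlier results of these data known. Named genes were the 30 most abundant (leaving out predicted names and small RNAs), of each list the 4 highest members and the lowest, defining markers, the genes beside the minimum and the highest gene of each class; others are said to be chosen after their levels were seen. Not every gene the rule names is reported here. Lists and their counts have no test. Sequence sharing was the share of 50-base words of a gene found in a transcript of another gene. Alternatives were other minimums, row choices, fragments in place of FPKM, left-out gene classes and other list summaries. Siglecf, Mcpt4, Hba-a2, Ahsp, Col1a2 and Sod1 were not analysed here, and no protein sequence was used. Python 3.11.15, pandas 2.3.3, numpy 2.4.6, scipy 1.17.1 and matplotlib 3.10.9 were used.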

Additional observations from a re-analysis of the deposited data

How the results depend on the processing

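No paired analysis was possible because each genotype had 1 library and no test was made, so no library could be left out either. The share of summed FPKM of the first 10 genes (16.3%) was 16.2% with no minimum and also without mitochondrially encoded genes, 17.1% with a minimum of 5 FPKM, 17.2% without ribosomal protein genes and pseudogenes, and 8.47% in fragments, which weight long genes. That of the first 100 (34.7%) was 34.5%, 34.3%, 36.5%, 35.8% and 24.4% in the same order. In fragments, genes were ranked by fragments, and shares here are of the fragments recovered for genes present, not of the whole library. With alternatives chosen after the data were seen, the 2 shares were 14.8% and 30.8% with rows without a symbol kept, 15.1% and 34.0% with principal transcript lengths where shorter, 13% and 32.4% with them throughout, and 10.2% and 29.6% without Fth1. The count of genes holding 50% of summed FPKM (344) was 625 in fragments and 551 with rows without a symbol kept. The number of genes present was 6775 with a minimum of 5 FPKM and 21662 with rows without a symbol kept. The median exon length of the first 100 genes (1751 bases) was 1459 bases by principal transcript. Rows with an Ensembl identifier alone gave the same values, since all symbols stood on such rows. The count of cell type lists with a median of at least 1 FPKM, 9, lay between 6 and 10 under its alternatives. Of 29 list shares, 12 moved by over 1.5 times in fragments. Lower were the iron list (9.89% to 3.55%), suppressive effectors (4.48% to 2.52%), mature neutrophils (3.99% to 1.21%) and secondary and tertiary granules (3.10% to 1.87%). Also lower were MHC class I (0.798% to 0.402%), toll-like receptors (0.446% to 0.280%), dendritic cells (0.391% to 0.169%) and primary granules (0.289% to 0.146%). Eosinophils fell from 0.107% to 0.0451% and megakaryocytes from 0.0597% to 0.0198%. Higher were cell cycle (0.103% to 0.179%) and stromal cells (0.00790% to 0.0155%). Promoter and protein features could not be compared, and levels of genes under 10 fragments are imprecise.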

Other observations

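Some constant region genes of immunoglobulins stood above the other B lineage genes. Igkc, the kappa light chain constant region, had 102 FPKM (1001 fragments), Ighg2c 33.7 FPKM (827 fragments), Igha 11.8 FPKM (580 fragments) and Ighg2b 8.38 FPKM (415 fragments), against 6.97 FPKM for Ighm. Others were lower, with Ighd at 2.36, Iglc2 at 0.796, Ighg3 at 0.345 and Ighe at 0.0341 FPKM. Jchain, which joins IgA and IgM units, had 2.92 FPKM and Cd79a, of the antigen receptor complex, had 2.49 FPKM. Genes used as plasma cell markers that myeloid cells also express were Sdc1 at 27.0 FPKM, Xbp1 at 96.5 FPKM and Prdm1 at 7.48 FPKM. Mzb1 and Pou2af1, more particular to B lineage and plasma cells, had 1.26 and 0.934 FPKM. Genes of the constant regions are similar to each other, so the split among them is uncertain.

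Counted in fragments rather than per length, long genes came forward. After Thbs1 and Fth1 came Actb with 132038 fragments, Ftl1 with 82753, Lcn2 with 81614, Psap with 72665 and Nos2 with 72290. Slc7a2, an importer of cationic amino acids including arginine, had 59890 fragments at 355 FPKM, Myh9, non-muscle myosin, had 51823, Slc7a11, the cystine importer, had 49697, and Fn1, fibronectin, had 46558.

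Other genes of the first 100 outside the groups named in the report were C3, the central complement protein, at 537 FPKM, Il1f9, an IL-36 cytokine, at 511 FPKM, Tnfrsf1b, a TNF receptor, at 511 FPKM, Car4, a carbonic anhydrase, at 511 FPKM and Tgm2, a transglutaminase, at 381 FPKM. Y-linked genes were present, with Ddx3y at 17.2 FPKM, Eif2s3y at 13.2 FPKM, Uty at 4.44 FPKM and Kdm5d at 2.94 FPKM. Nnt, the mitochondrial transhydrogenase gene that carries a deletion in the C57BL/6J substrain, had 0.292 FPKM (38 fragments). All genes here were chosen after their levels were seen.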
